A study of Mus musculus with 13 samples.

Results

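The 10 genes described here encode the transcription factor NRF2, its sensor KEAP1 and enzymes of glutathione, thioredoxin and heme metabolism. They were chosen by symbol, and for each gene the probe set naming that symbol alone with the highest mean log2 value over all 13 arrays was used. All 10 of the 10 symbols had such a probe set, out of 22180 genes in the series, and all 10 lay above the filter on low values that left 12710 genes for testing. Splenocytes of C57BL/6 mice, labelled with the division dye CFSE, were transferred into B6D2F1 hosts to start graft-versus-host disease, with mice 10 to 12 weeks old. At 72 h the donor CD4+ T cells responding to the host, with 2 or more divisions by CFSE dilution, were taken from spleen and lymph node with pan-CD4 microbeads and a flow sorter. Every group carried this same transfer, and the hosts received vehicle on days 0 to 2 (4 arrays), TCDD at 15 µg/kg on day 0 alone (4 arrays), or Cl-BBQ at 10 mg/kg on days 0 to 2 (5 arrays), all intraperitoneally. TCDD and Cl-BBQ are ligands of the aryl hydrocarbon receptor (AhR), and their doses and schedules differ. Values are log2 expression after RMA, in which 1 unit is a doubling.

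NRF2 is normally held low because KEAP1 feeds it to a CUL3 ubiquitin ligase. Electrophiles and oxidants modify KEAP1, NRF2 accumulates, and with small MAF partners it binds antioxidant response elements (AREs) near genes for glutathione synthesis, thioredoxin reduction and conjugation of foreign compounds. Control of NRF2 is therefore largely at the protein level, and the level of its messenger RNA need not follow its activity. Ligand-bound AhR binds a different element, the XRE, and some detoxification genes, with Nqo1 the textbook case, carry both kinds of element. In activated T cells glutathione supports growth and division.

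Promoter stretches are shown for the genes on which the results turn, namely Gstp3 and Gclm, and for Gstp1 and Gstp2, the pi-class transferase genes that neighbour Gstp3 on chromosome 19. They are read 5′ to 3′ from RefSeq windows on GRCm38.p6 and cover only bases upstream of the outermost annotated start of the gene. The Gclm stretch ends before a further GCGTG match at -12. Capitals mark matches, on either strand, to the ARE core TGACNNNGC, its variant TGAGNNNGC, or the XRE core GCGTG. The regions are chr19:4037913-4038162 for Gstp1, chr19:4042222-4042471 for Gstp2 and chr19:4059606-4059697 for Gstp3, all on the minus strand, and chr3:122245307-122245486 on the plus strand for Gclm.
Gstp1: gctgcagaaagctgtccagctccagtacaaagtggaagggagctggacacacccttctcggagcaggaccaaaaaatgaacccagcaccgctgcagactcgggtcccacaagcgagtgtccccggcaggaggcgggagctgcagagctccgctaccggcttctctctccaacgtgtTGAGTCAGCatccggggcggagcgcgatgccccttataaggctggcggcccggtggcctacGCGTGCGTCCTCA
Gstp2: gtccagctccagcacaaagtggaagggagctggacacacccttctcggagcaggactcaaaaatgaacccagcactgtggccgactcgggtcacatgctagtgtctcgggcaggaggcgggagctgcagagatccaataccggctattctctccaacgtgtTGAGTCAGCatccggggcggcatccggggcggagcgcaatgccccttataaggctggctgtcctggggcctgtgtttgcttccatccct
Gstp3: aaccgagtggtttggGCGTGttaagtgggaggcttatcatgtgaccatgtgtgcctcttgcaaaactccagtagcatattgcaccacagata
Gclm: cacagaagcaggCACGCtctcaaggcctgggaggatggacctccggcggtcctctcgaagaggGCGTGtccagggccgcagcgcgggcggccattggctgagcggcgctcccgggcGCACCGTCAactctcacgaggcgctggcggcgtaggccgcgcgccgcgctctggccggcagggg

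Gstp1 and Gstp2 both held TGAGTCAGC, starting at -74 and -89 from their transcript starts, a string that also contains the AP-1 site TGAGTCA. In Gstp1 the last base of a GCGTG match at -13 was also the first of a TGAGNNNGC match on the other strand at -9. The Gstp3 window held other matches to the same variant, TGAGTCTGC at -152 and TGAGCTTGC at -7, which lie downstream of the outermost annotated start and are shown as short sites on the minus strand, chr19:4059582-4059608 and chr19:4059437-4059463. A short site is also given for Nfe2l2, chr2:75704886-75704912 on the minus strand, since its window held TGACTCCGC at -240.
Gstp3 first site: atagaaaggTGAGTCTGCcctccccca
Gstp3 second site: tcttcctgcTGAGCTTGCaccacactg
Nfe2l2 site: cagcccaccTGACTCCGCcatgccccg

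Over the whole 300-base windows (250 bases before to 50 after a transcript start), Gstp1 and Gstp2 were identical at 76.4% of aligned columns, Gstp1 and Gstp3 at 48.3%, and Gstp2 and Gstp3 at 43.6%. Windows were matched for 7 of the 10 genes, with 9 windows because Txnrd1 has 3 starts. An ARE core or its variant was found for 5 of these 7 genes, Nfe2l2, Gclm, Txnrd1, Srxn1 and Gstp3, and a GCGTG for 5, Keap1, Gclm, Txnrd1, Srxn1 and Gstp3. Among all 32851 windows of that length, 12.4% held TGACNNNGC, 17.6% TGAGNNNGC, 27.8% either, and 32.4% GCGTG. These shares are per window, whereas the counts for the 7 genes are per gene and allow Txnrd1 a match in any of its 3 windows. Such matches describe letters in the window only.

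**Figure D1:**
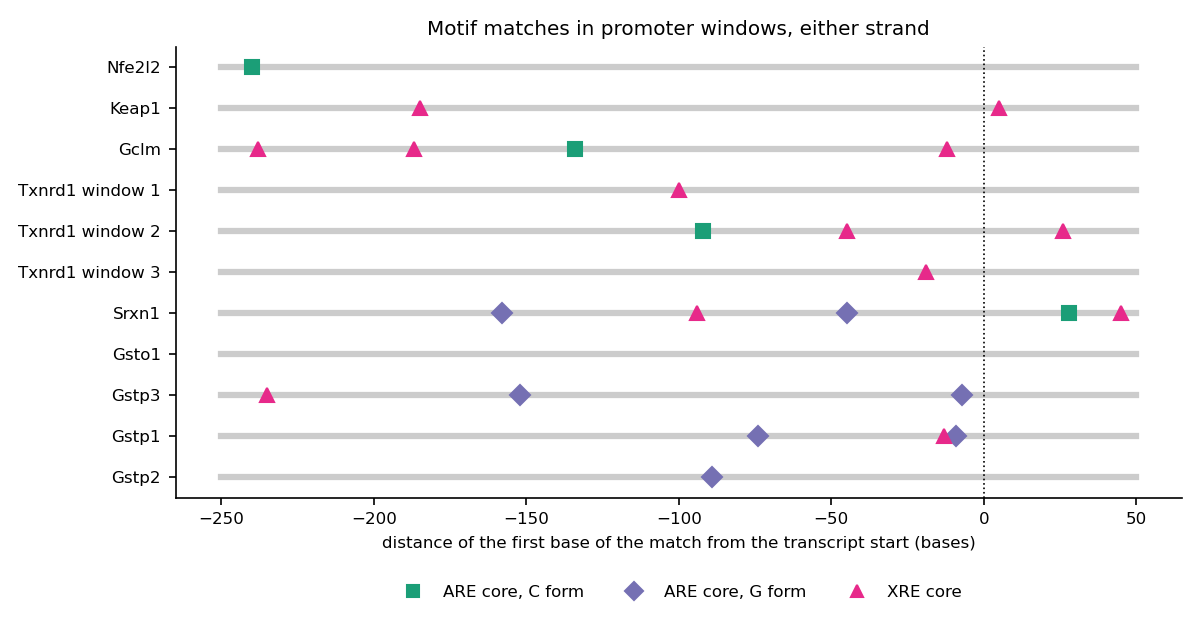
Matches to the ARE core (C form TGACNNNGC, G form TGAGNNNGC) and to the XRE core GCGTG in the RefSeq promoter windows of 7 of the 10 genes and of Gstp1 and Gstp2; each grey line is a window and the x axis gives the distance of the first base of a match from the transcript start in bases. Gstp3 has an XRE core at -235 and G-form matches at -152 and -7, while the window of Gsto1 has no match.

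The sorted cells carried the markers of CD4 T cells. All 6 listed T cell genes, Cd4, Cd28, Cd5 and the CD3 chains, were above the filter. Their list means were 10.92 to 11.21 with vehicle, 11.22 to 11.27 with TCDD and 11.21 to 11.27 with Cl-BBQ. All 6 had higher means with each ligand, by a median of 0.14 with TCDD and 0.12 with Cl-BBQ on the log2 scale. Treated and vehicle arrays did not overlap for 4 of them with TCDD and 1 with Cl-BBQ, beside 13.6% and 12.9% of all genes. Of 10 macrophage and monocyte markers, 7 did not pass the filter and 6, among them Lyz2, Cd14 and Vcam1, stayed under a floor of 4.31, set at the median over all values, on every array, with list means of 3.84 to 3.98 with vehicle, 3.75 to 3.93 with TCDD and 3.71 to 4.03 with Cl-BBQ. None of 4 dendritic cell and none of 4 neutrophil markers passed. List means of B cell markers were 4.33 to 4.69 with vehicle, 3.79 to 4.14 with TCDD and 3.94 to 4.26 with Cl-BBQ. Of the 3 tested B cell markers, 1, Cd22, was called by limma, as lower with both ligands. Cd22 was at 5.89 to 6.54 in the vehicle arrays and under the floor on every TCDD and Cl-BBQ array, so the size of its fall is uncertain. Over the other 3 B cell markers, in a mean added after seeing the data, the arrays lay at 3.72 to 4.14, 3.81 to 4.11 and 3.83 to 4.31 in the same order of groups, and so overlapped. Of the 3 tested macrophage markers 1, the lysosomal gene Cd68, rose with both ligands, by 0.79 and 0.64 (limma, adjusted p = 0.0236 and 0.0398). List means of CD8 T cell markers lay above the floor, at 5.28 to 5.55 with vehicle, 5.34 to 6.01 with TCDD and 5.66 to 6.12 with Cl-BBQ. Those of NK cell markers did as well, at 4.54 to 4.88, 4.41 to 4.89 and 4.33 to 5.03 in the same order. No CD4 T cell, CD8 T cell, NK cell or erythroid marker was called, with 6, 2, 3 and 1 tested. The part of these markers in the results below was not tested. In bulk RNA, fewer cells of a kind and less RNA per cell cannot be told apart.

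TCDD was compared with vehicle to see whether the dioxin altered these redox genes in the dividing donor cells. Gstp3, a pi-class glutathione transferase, fell 2.50-fold, and none of the other 9 genes passed the test. Over all genes tested, 6.71% were called at an adjusted p under 0.05 by limma, 3.21% higher and 3.5% lower with TCDD, so 1 call among 10 is close to the background. The median log2 difference of the 10 genes was -0.017, beside -0.00089 over all 12710 genes, with 5 differences above 0 and 5 below. The TCDD and vehicle arrays did not overlap for 2 of the 10, Gstp3 and Gclm, against 13.6% of all genes.

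Cl-BBQ was compared with vehicle for the same question. Gstp3 fell 4.31-fold and Gclm, the modifier subunit of the enzyme that starts glutathione synthesis, fell 1.36-fold. The other 8 did not pass. Over all genes 11.3% were called, 5.31% higher and 6.03% lower, and the arrays of both groups did not overlap for 12.9%, against 2 of the 10 genes, again Gstp3 and Gclm. The median log2 difference of the 10 genes was 0.0068, beside -0.0064 over all genes. Both comparisons share the vehicle arrays.

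**Figure D2:**
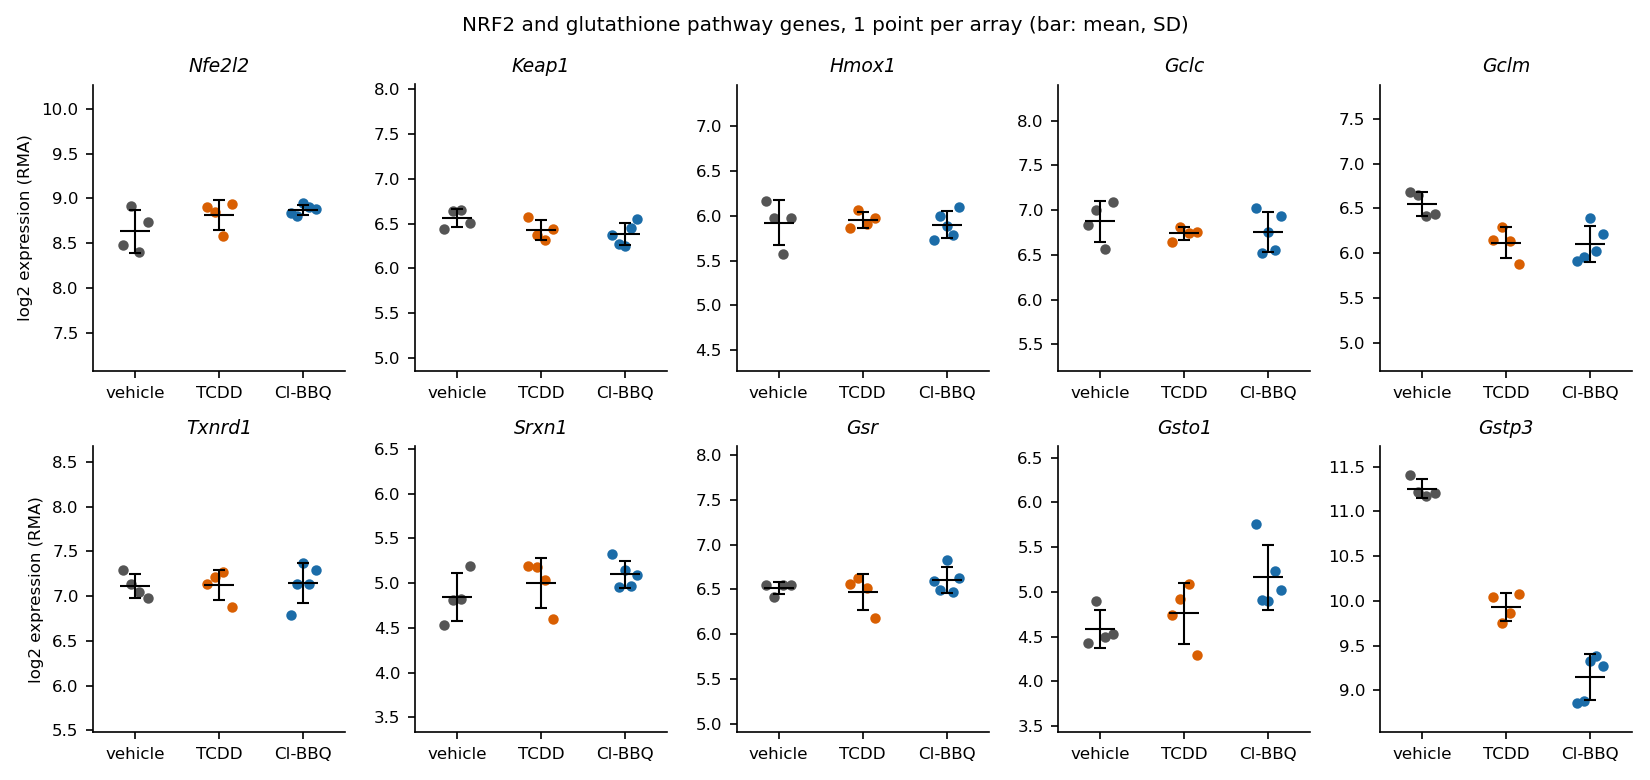
log2 expression (RMA, y axis) of the 10 genes by treatment group (x axis), 1 point per array with the group mean and SD; every panel spans the same number of log2 units, so that spreads can be compared between panels but absolute positions belong to each probe set alone. In Gstp3 the groups form 3 separate bands, vehicle at 11.18 to 11.41, TCDD at 9.75 to 10.07 and Cl-BBQ at 8.85 to 9.39, while in Hmox1, Gclc, Txnrd1 and Gsr they overlap.

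Nfe2l2 encodes NRF2 itself. Its values were 8.47, 8.91, 8.40 and 8.74 in vehicle replicates 1 to 4, 8.90, 8.85, 8.57 and 8.94 in TCDD replicates 1 to 4, and 8.84, 8.80, 8.94, 8.91 and 8.88 in Cl-BBQ replicates 1 to 5. The Cl-BBQ arrays lay close together, and vehicle replicate 2 was as high as they were, so the groups overlapped. The group means were 8.63 ± 0.24 (SD, n = 4), 8.81 ± 0.17 (SD, n = 4) and 8.88 ± 0.06 (SD, n = 5). The log2 difference was 0.18 ± 0.12 (SE) with TCDD and 0.24 ± 0.11 with Cl-BBQ, with 95% intervals of -0.07 to 0.44 and 0.0045 to 0.48, and neither passed (limma, adjusted p = 0.475 and 0.207).

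Keap1, the repressor and sensor of NRF2, had the opposite order of means. They were 6.56 ± 0.10 in the vehicle group, 6.42 ± 0.11 after TCDD and 6.38 ± 0.12 after Cl-BBQ. Its arrays ranged from 6.44 to 6.66, 6.32 to 6.57 and 6.25 to 6.55 in these groups, and neighbouring groups overlapped. The differences of -0.14 ± 0.10 (SE) and -0.18 ± 0.09 did not pass (limma, adjusted p = 0.530 and 0.259). A further probe set of Keap1 had means of 5.34, 5.31 and 5.36 in the same order of groups, with vehicle replicate 3 at 4.79 and the other vehicle arrays at 5.52 to 5.53. With all arrays its differences were -0.02 with TCDD and 0.02 with Cl-BBQ, so it did not show the lower treated means of the probe set used. Without vehicle replicate 3, left out after its value was seen, they were -0.21 and -0.16. On the probe set used, that array was the highest vehicle array, at 6.66. Single-array removals there gave -0.19 to -0.10 with TCDD and -0.22 to -0.15 with Cl-BBQ.

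Hmox1 encodes heme oxygenase 1, which breaks down heme and is a widely used readout of NRF2. It ranged from 5.57 to 6.17 with vehicle, 5.86 to 6.07 with TCDD and 5.73 to 6.10 with Cl-BBQ, with the vehicle arrays spanning all the others. The log2 differences were 0.03 ± 0.12 (SE) and -0.02 ± 0.12, with 95% intervals of -0.24 to 0.30 and -0.27 to 0.23 (limma, adjusted p = 0.939 and 0.956). These intervals describe the RNA read by this probe set at 72 h, and other times and the protein were not tested.

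Gclc and Gclm are the catalytic and modifier subunits of glutamate-cysteine ligase, the rate-limiting enzyme of glutathione synthesis. Gclm was at 6.69, 6.65, 6.42 and 6.44 in the vehicle replicates, at 6.15, 6.29, 6.14 and 5.88 in the TCDD replicates, and at 5.91, 5.96, 6.39, 6.02 and 6.22 in the Cl-BBQ replicates. Every treated array was below every vehicle array, and the nearest, Cl-BBQ replicate 3, lay just under vehicle replicate 3. With Cl-BBQ the fall of 0.45 on the log2 scale passed (SE 0.12, 95% interval -0.70 to -0.20, limma, adjusted p = 0.0221). This call was lost without vehicle replicate 1 (adjusted p = 0.0754), vehicle replicate 2 (0.0695), Cl-BBQ replicate 2 (0.0527) or Cl-BBQ replicate 4 (0.0505).

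With TCDD the Gclm difference was nearly the same, -0.43 ± 0.12 (SE, 95% interval -0.70 to -0.17), on the other side of the threshold (limma, adjusted p = 0.0529). It passed without TCDD replicate 2 (adjusted p = 0.0480), Cl-BBQ replicate 1 (0.0434) or Cl-BBQ replicate 3 (0.0344), and under 5 other settings. The highest adjusted p was 0.148 among single-array removals and 0.103 among other settings. The Cl-BBQ and TCDD groups differed in Gclm by -0.01, with a 95% interval of -0.27 to 0.24.

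Gclc ranged from 6.57 to 7.09 with vehicle, 6.65 to 6.82 with TCDD and 6.52 to 7.03 with Cl-BBQ, so the groups overlapped throughout. Its differences from vehicle, -0.14 ± 0.13 (SE) and -0.12 ± 0.13, did not pass (limma, adjusted p = 0.685 and 0.651). To ask whether the subunits changed unequally, the within-array log2 ratio of Gclm to Gclc was compared with vehicle. It was lower by 0.30 with TCDD and by 0.33 with Cl-BBQ. Treated and vehicle arrays overlapped, and neither difference passed (exact two-sided permutation test, p = 0.114 and 0.0952, both 0.114 after Benjamini-Hochberg adjustment over 4 ratio tests).

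Txnrd1 encodes the cytosolic thioredoxin reductase, and Srxn1 encodes sulfiredoxin, which repairs over-oxidised peroxiredoxins. Txnrd1 ranged from 6.98 to 7.29 with vehicle, 6.88 to 7.27 with TCDD and 6.79 to 7.37 with Cl-BBQ, and its differences from vehicle were 0.01 ± 0.13 (SE) and 0.03 ± 0.12. Srxn1 ranged from 4.54 to 5.19, 4.60 to 5.19 and 4.96 to 5.33, with differences of 0.16 ± 0.15 and 0.26 ± 0.15. Neither gene passed in either comparison (limma, adjusted p between 0.332 and 0.979), and the groups overlapped in both. The Srxn1 values were close to the floor.

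Gsr encodes glutathione reductase, which regenerates reduced glutathione. Vehicle arrays were between 6.41 and 6.55, TCDD arrays between 6.18 and 6.63 and Cl-BBQ arrays between 6.47 and 6.83. The differences of -0.05 ± 0.11 (SE) and 0.09 ± 0.11 did not pass (limma, adjusted p = 0.891 and 0.690). The overlapping groups left no order of levels beyond their spread.

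Gsto1 encodes an omega-class glutathione transferase with thioltransferase activity. It was at 4.43, 4.90, 4.49 and 4.53 in the vehicle replicates, at 4.74, 4.92, 5.09 and 4.30 in the TCDD replicates, and at 5.76, 4.90, 4.90, 5.23 and 5.02 in the Cl-BBQ replicates. Cl-BBQ replicate 1 was the highest array and TCDD replicate 4 the lowest. The TCDD arrays overlapped those of both other groups, and the lowest Cl-BBQ array equalled the highest vehicle array, at 4.90. The log2 difference with Cl-BBQ was 0.57 ± 0.19 (SE, 95% interval 0.17 to 0.98), short of the threshold (limma, adjusted p = 0.0706). Leaving out TCDD replicate 4, which shares the estimate of the spread, brought it to 0.0464. Other single-array removals gave up to 0.173. With TCDD it was 0.17 ± 0.20 (adjusted p = 0.735). Vehicle values lay just above the floor.

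Gstp3 gave the widest separation of the 10 genes. It was at 11.41, 11.22, 11.18 and 11.21 in vehicle replicates 1 to 4, at 10.05, 9.75, 9.86 and 10.07 in the TCDD replicates, and at 8.85, 8.88, 9.33, 9.39 and 9.27 in the Cl-BBQ replicates. No array of one group reached into the range of another. The means were 11.25 ± 0.10 (SD, n = 4), 9.93 ± 0.15 (SD, n = 4) and 9.15 ± 0.26 (SD, n = 5). The log2 difference from vehicle was -1.32 ± 0.13 (SE, 95% interval -1.60 to -1.04, limma, adjusted p = 2.14e-05) with TCDD and -2.11 ± 0.13 (SE, 95% interval -2.38 to -1.84, adjusted p = 6.06e-08) with Cl-BBQ. Counted from the most negative difference, Gstp3 stood at place 36 of 12710 genes with TCDD and at place 10 with Cl-BBQ. Both calls were kept without any one of the 13 arrays, with adjusted p of at most 1.44e-04 and 7.04e-07.

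The Cl-BBQ and TCDD groups were compared directly, as regimens that differ in ligand, dose and schedule. By limma 3 of 12710 genes, 0.0236%, passed, namely Gzma (granzyme A), Il7r (the interleukin 7 receptor chain) and Nqo1. None of the 10 genes passed, and 1 had an unadjusted p under 0.05. That gene, Gstp3, was lower with Cl-BBQ by 0.79 ± 0.13 on the log2 scale (SE, 95% interval of the difference -1.06 to -0.52, limma, adjusted p = 0.0506), and its Cl-BBQ and TCDD arrays did not overlap, as for 2.11% of all genes. It passed without Cl-BBQ replicate 4 (adjusted p = 0.0469) and under 5 other settings. The highest adjusted p was 0.266 among single-array removals and 0.256 among other settings. Gsto1 differed by 0.40, with a 95% interval of -0.01 to 0.81 (adjusted p = 0.785). For the remaining genes the differences lay between -0.05 and 0.14.

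**Figure D3:**
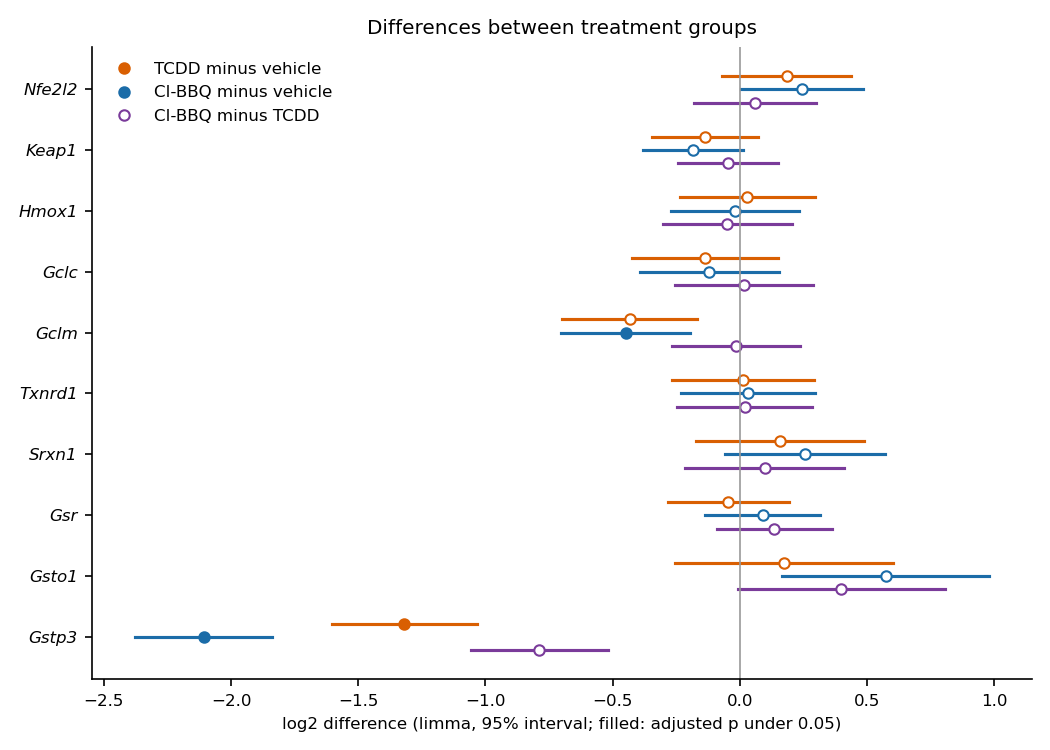
log2 differences between treatment groups (x axis) for the 10 genes (y axis) with 95% intervals from limma; filled points have an adjusted p under 0.05 over all 12710 genes. Gstp3 is at -1.32 with TCDD and -2.11 with Cl-BBQ, Gclm is near -0.4 in both comparisons with vehicle, and the intervals of the TCDD comparison include 0 for the other 8 genes.

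Gstp3 was set beside its neighbours Gstp1 and Gstp2, which encode pi-class enzymes of the same kind. The mean of Gstp1 was 11.29 ± 0.24 in vehicle arrays, 11.58 ± 0.15 in TCDD arrays and 11.54 ± 0.09 in Cl-BBQ arrays, and its differences of 0.30 ± 0.12 (SE) and 0.25 ± 0.11 did not pass (limma, adjusted p = 0.196 and 0.200). Gstp2 differed by 0.30 ± 0.11 and 0.34 ± 0.11 (adjusted p = 0.162 and 0.0643), and its treated arrays all lay above its vehicle arrays. The Cl-BBQ difference passed under a stricter filter (adjusted p = 0.0436) and with a trended, robust prior (0.0239). Other settings gave up to 0.127, and single-array removals gave 0.0557 to 0.185. A probe set that names both Gstp1 and Gstp2 had means of 10.46, 10.64 and 10.69. The 3 probe sets of these neighbours thus had higher means with both ligands, and the Gstp3 probe set lower ones.

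The within-array log2 ratio of Gstp3 to Gstp1 was -0.03 ± 0.19 (SD, n = 4) with vehicle, -1.65 ± 0.24 (SD, n = 4) with TCDD and -2.39 ± 0.22 (SD, n = 5) with Cl-BBQ, and the treated arrays did not overlap the vehicle arrays. The exact two-sided permutation p was 0.0286 with TCDD and 0.0159 with Cl-BBQ, each the smallest its design allows, and both were 0.0571 after Benjamini-Hochberg adjustment over the 4 ratio tests. Gstp3 alone already separated these arrays, and the ratio was chosen after that was seen. The permutation p therefore adds no support beyond the Gstp3 values. The probe sequences were not used here, so how far the Gstp1 and Gstp2 probes read each other's transcripts is uncertain.

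**Figure D4:**
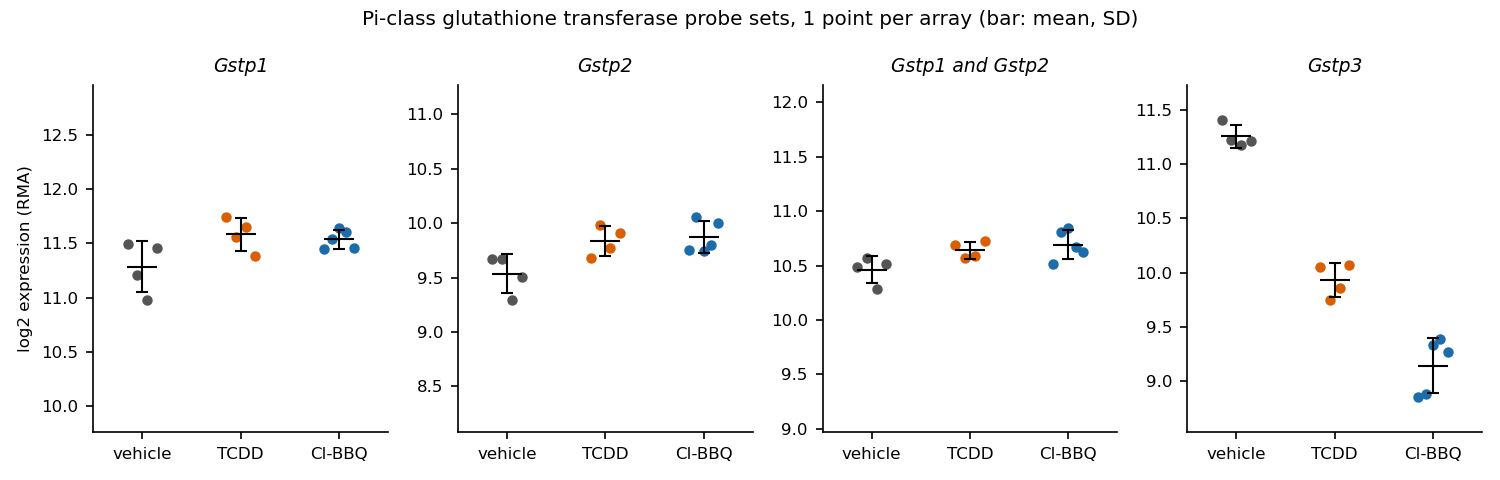
log2 expression (RMA, y axis) of the probe sets naming Gstp1, Gstp2, both, and Gstp3 by treatment group (x axis), 1 point per array with mean and SD; the panels span equal numbers of log2 units. The group means of the Gstp1, Gstp2 and shared probe sets are 0.18 to 0.34 higher with a ligand than with vehicle, and Gstp3 steps down from 11.25 to 9.93 and 9.15.

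The tested genes nearest in pattern were found by the root mean square difference of log2 values, each centred on the gene's mean, over the 13 arrays. For Gstp3 they were Tpx2, a spindle assembly factor, at 0.236 log2 units, and Ticrr, an initiator of DNA replication, at 0.248. Tpx2 had means of 7.90, 6.58 and 6.12 with vehicle, TCDD and Cl-BBQ, and Ticrr 5.97, 4.88 and 4.30. The Cl-BBQ mean of Ticrr lay under the floor of 4.31, so the size of its step from TCDD to Cl-BBQ is uncertain. For Gclm the nearest were Cemip2, a membrane protein of hyaluronan turnover, at 0.117, and Nap1l1, a histone chaperone, at 0.118, with Nap1l1 at 9.69, 9.26 and 9.19. These are descriptions over the same arrays, in which every gene that falls with treatment shares the group steps.

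The other genes of the pathway were taken from 8 lists with 70 tested members, of which 3 rose and 1 fell with TCDD and 5 rose and 1 fell with Cl-BBQ (limma). The share called was 5.71% for TCDD, beside 6.71% of all genes, and 8.57% for Cl-BBQ, beside 11.3%. Their median log2 differences were 0.0093 and -0.0051. Among other NRF2 targets, 1 of 11 rose with TCDD and 3 of 11 with Cl-BBQ, where 3.21% and 5.31% of all genes were called higher. Nqo1, a quinone reductase gene shared with the AhR battery, was at 4.57, 4.41, 4.20 and 4.10 in the vehicle replicates, at 5.65, 5.36, 4.88 and 5.42 in the TCDD replicates, and at 6.63, 6.30, 6.43, 6.06 and 6.64 in the Cl-BBQ replicates. Its groups did not overlap, with the highest values in the Cl-BBQ arrays, a vehicle mean of 4.32 and 2 vehicle arrays under the floor. It rose 2.01-fold and 4.26-fold (limma, adjusted p = 0.00169 and 7.05e-07), and by 1.08 ± 0.16 (SE, log2) from TCDD to Cl-BBQ (adjusted p = 0.0392). This direct call survived the removal of vehicle replicate 1, vehicle replicate 3 or Cl-BBQ replicate 4, and not that of any of the other 10 arrays, with 0.150 the highest value (Cl-BBQ replicate 2 removed).

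Osgin1, an oxidative stress-induced growth inhibitor, rose by 0.47 ± 0.10 (SE, log2) with Cl-BBQ (limma, adjusted p = 0.00547). With TCDD it was at 0.35 ± 0.10 (adjusted p = 0.0638), and it passed without vehicle replicate 4 (0.0329) or Cl-BBQ replicate 4 (0.0466), under a stricter filter (0.0405) and with array weights (0.0465). Other single-array removals gave up to 0.186. Blvrb, biliverdin reductase B, rose by 0.34 with Cl-BBQ (adjusted p = 0.0487). Removing Cl-BBQ replicate 2 or 5 kept that call, and removing any of the other 11 arrays did not, with 0.150 the highest value (vehicle replicate 4 removed). The ferritin gene Fth1, a classic NRF2 target in iron storage, was at -0.04 and 0.00, and neither passed.

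In glutathione supply, 1 of 7 tested genes rose with either ligand, beside the same 3.21% and 5.31% of all genes. Slc3a2, the heavy chain that carries the cystine and neutral amino acid transporters to the membrane, went from 7.71 ± 0.11 with vehicle to 8.26 ± 0.12 with TCDD and 8.22 ± 0.13 with Cl-BBQ (limma, adjusted p = 0.00299 and 0.00195). Slc7a11, the cystine transporter chain and a well-known NRF2 target, was below the floor in every group, with means of 2.68, 2.69 and 2.59, and was not tested. Gss, glutathione synthetase, was at 0.08 ± 0.18 (SE) and -0.13 ± 0.17 (adjusted p = 0.875 and 0.750). The test thus called no difference in Gss.

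Among 14 thioredoxin, peroxiredoxin and glutaredoxin genes, 1 rose and 1 fell with each ligand, where 6.71% and 11.3% of all genes were called in either direction. Txnip, an inhibitor of thioredoxin and of glucose uptake, rose by 0.44 with TCDD and 0.65 with Cl-BBQ on the log2 scale (limma, adjusted p = 0.0354 and 9.35e-04). Prdx4, the peroxiredoxin of the endoplasmic reticulum, fell by 0.58 and 0.78 (adjusted p = 0.0241 and 0.00127). For TCDD, the Txnip call did not survive removal of vehicle replicate 1, 3 or 4 or of any TCDD replicate (highest adjusted p 0.0998, vehicle replicate 3 removed). The Prdx4 call did not survive removal of vehicle replicate 1, 2 or 3 or of TCDD replicate 2 or 3 (highest adjusted p 0.0777, vehicle replicate 1 removed). Txn1, thioredoxin itself, was at -0.33 and -0.29 and did not pass. Its arrays lay at 8.62 to 8.78 with vehicle, 8.28 to 8.46 with TCDD and 8.17 to 8.60 with Cl-BBQ, so treated and vehicle arrays did not overlap. That held for 3 of the 14 genes with each ligand, beside 13.6% of all genes with TCDD and 12.9% with Cl-BBQ.

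No gene of the remaining 5 lists was called by limma with either ligand. These were 13 NRF2 partners and regulators, 11 other glutathione transferases, 3 glutathione peroxidases, 3 genes of superoxide and hydrogen peroxide removal, and 8 genes of NADPH supply. At an unadjusted p under 0.05 there were 3 glutathione transferases with TCDD and 6 with Cl-BBQ, and 1 gene each of NRF2 regulators and NADPH supply with Cl-BBQ. Over all genes 18% with TCDD and 23% with Cl-BBQ were under that unadjusted threshold. Bach2, a T cell repressor that competes for the same MAF partners, differed by 0.15 ± 0.16 (SE) and 0.17 ± 0.15 (adjusted p = 0.706 and 0.568). As a reference, all 4 tested AhR targets rose with both ligands. Tiparp, an ADP-ribosyltransferase gene, was above the floor on every array and rose by 1.33 with TCDD and 1.94 with Cl-BBQ on the log2 scale (limma, adjusted p = 2.48e-05 and 1.84e-07). The vehicle arrays of the cytochrome P450 gene Cyp1b1 and of Ahrr, the AhR repressor, all lay under the floor, as did 3 of 4 for Cyp1a1. These genes thus passed the filter through their treated arrays. Their calls are not independent of that filter, and the sizes of their rises are uncertain. Their treated means were 6.87 and 7.82 for Cyp1b1, 5.06 and 5.28 for Ahrr, and 5.35 and 6.98 for Cyp1a1, with TCDD and Cl-BBQ respectively.

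**Figure D5:**
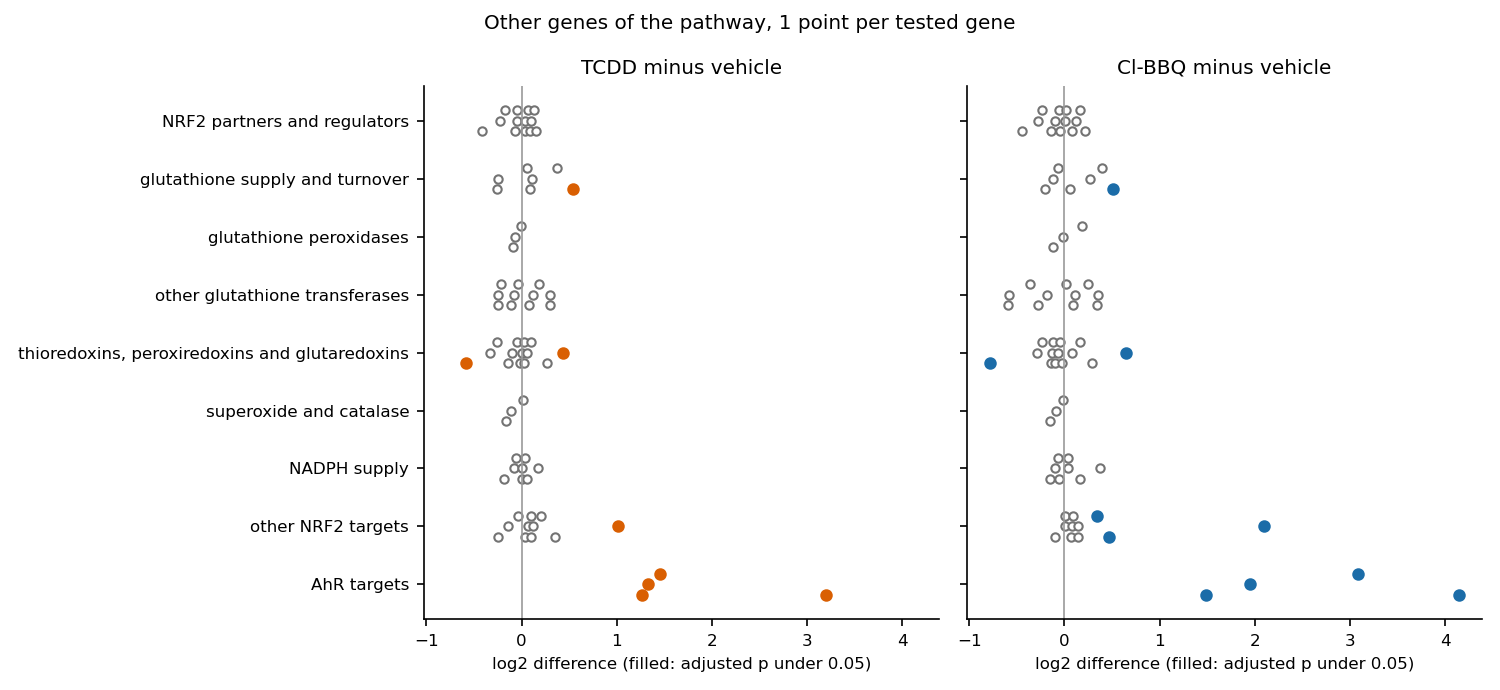
log2 differences from vehicle (x axis) of the tested genes in 8 pathway lists and in the AhR target list (y axis), 1 point per gene, for TCDD and Cl-BBQ; filled points have an adjusted p under 0.05. Most points lie near 0, and Nqo1 stands out among other NRF2 targets at 1.01 and 2.09. The 4 tested AhR targets are all filled, but 3 of them had vehicle values mostly or wholly under the floor and passed the filter through their treated arrays.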

How the data were processed

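The deposited table held log2 values for 41345 probe sets on 13 arrays, made by the authors with RMA per the submitters' processing notes (background correction, quantile normalization, probe set summary); the software version, annotation and genome build of the design are not given in the sources used. RMA fixes a common distribution, so a shift of all transcripts cannot be seen, and the number of arrays limits the precision. Array medians lay between 4.27 and 4.33 and array correlations between 0.943 and 0.976. The labels call the samples biological replicates.

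The platform annotation gave the names of probe sets (23521 with 1 symbol, 1814 with several, 16010 unnamed), with symbols updated by gene identifier to RefSeq genes of GRCm38.p6. Genes above 4.31 in at least 4 arrays were tested with limma 3.58.1 (R 4.3.3; lmFit, eBayes, 3 group means, two-sided, 10 residual and 4.22 prior degrees of freedom), with Benjamini-Hochberg adjustment over 12710 genes per contrast at 0.05. SE is the moderated standard error. The fit was tested on simulated data. Ratios used exact permutation tests (SciPy 1.17.1), and windows were aligned with Biopython 1.88.

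The members and lists were chosen with earlier results of these data known. The 10 members were named whatever their result. From each other pathway list up to 3 called genes per contrast with vehicle were named, smallest adjusted p first, with Gstp1, Gstp2, Nqo1, Slc7a11, Gss and Bach2 added, and the 2 nearest genes of each called member. Fth1, Txn1, Cd22, Cd68 and the ratio tests were chosen after values were seen. Of 144 other listed genes, 126 had a probe set with 1 symbol. Replicate numbers were not taken as pairs, because the labels do not say that they mark a shared animal, litter or day. Same-numbered arrays did not deviate together (12 correlations of deviations between -0.06 and 0.08), a check that cannot exclude pairing. Alternatives varied scaling, filter, probe set choice, samples in the fit, array weights, variance prior, replicate block and single arrays; their use on the other pathway lists was added after seeing the data. Scan dates and RNA quality were not used here.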

Additional observations from a re-analysis of the deposited data

Results flagged for a closer look

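An array far from the others of its group was looked for in 30 named genes and 3 groups, 90 group sets in all, of which chance alone gives about 1 in 20. There were 3. Gsr in vehicle replicate 2 was 6.41, where the other vehicle arrays were 6.55 each. Gss in Cl-BBQ replicate 1 was 5.08, where the other Cl-BBQ arrays lay between 5.97 and 6.13. Osgin1 in Cl-BBQ replicate 4 was 6.11, where the others lay between 5.80 and 5.89.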

How the results depend on the processing

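The falls of Gstp3 with TCDD and with Cl-BBQ passed under all 9 other settings and without any one array. Members called with TCDD were 2 in place of 1 (Gclm in addition) after quantile normalization again, with array medians subtracted, with a stricter filter, with array weights and with only 2 groups in the fit, and 1 to 2 without single arrays. With Cl-BBQ the count of 2 was 1 with the replicate block, where Gclm had an adjusted p of 0.0507, and 1 to 3 without single arrays. In the direct comparison the 3 genes called were 6 after quantile normalization, with the stricter filter or with trend and robust, 5 with probe sets averaged, 7 with array weights, 0 with no filter, with the replicate block or with only 2 groups, and 0 to 5 without single arrays. Members called there were 1, Gstp3, in place of 0 under the first 5 of these settings, and 0 to 1 without single arrays. The 1 other pathway gene called there, Nqo1, was 0 with no filter, with the replicate block or with only 2 groups, and 0 to 1 without single arrays, and with TCDD the 4 other pathway genes were 2 to 5 without single arrays. The replicate block changed the call of Blvrb with Cl-BBQ (adjusted p = 0.0655) and of Nqo1 in the direct comparison (0.202) as well.

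Signs turned 37 times among 1290 single values, none with an adjusted p under 0.05. Hmox1 with TCDD was -0.0041 with medians subtracted and -0.020 with array weights (-0.088 to 0.11 without single arrays), and with Cl-BBQ 0.0031 after quantile normalization (-0.14 to 0.062). Txnrd1 was -0.021 with TCDD and medians subtracted (-0.037 to 0.094) and -0.0054 with Cl-BBQ and the replicate block (-0.024 to 0.12). In the direct comparison Gclm was 0.0051 with medians subtracted and 0.011 with array weights (-0.093 to 0.044), Gclc -0.0044 with array weights and -0.028 with the block (-0.051 to 0.076), and Txnrd1 -0.018 with the block (-0.062 to 0.11). Single arrays alone turned Gsr with TCDD (-0.099 to 0.051), Gss with Cl-BBQ (-0.20 to 0.062) and, in the direct comparison, Nfe2l2 (-0.020 to 0.10), Keap1 (-0.088 to 0.0030) and Srxn1 (-0.038 to 0.16). The cause was not tested. Of the other pathway calls, Blvrb with Cl-BBQ also missed the threshold with medians subtracted, no filter, array weights, trend and robust, or only 2 groups (adjusted p of 0.062 to 0.107), and Txnip with TCDD with medians subtracted, no filter, array weights or only 2 groups (0.053 to 0.073). Srxn1 and Gsto1 were not tested under the stricter filter. Genes near the floor, Srxn1, Gsto1 and Nqo1 with vehicle, are the least firmly measured.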

Other observations

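TCDD replicate 4 was the lowest TCDD array for 5 of the 10 genes, Gclm, Txnrd1, Srxn1, Gsr and Gsto1, with values of 5.88, 6.88, 4.60, 6.18 and 4.30, and the highest for Nfe2l2 and Gstp3. Without that array the log2 difference of Srxn1 between TCDD and vehicle was 0.29 rather than 0.16, and that of Gsto1 0.33 rather than 0.17, and neither passed. Vehicle replicate 3 was likewise the lowest vehicle array for 5 of the 10 genes, Nfe2l2, Hmox1, Gclc, Gclm and Gstp3, and the highest for Keap1 and Gsr. It was also the lowest vehicle array for each listed CD4 T cell marker, and it enters both comparisons with vehicle.

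Some glutathione transferases of other classes had lower means with Cl-BBQ, and none passed. Gstm1 was at 6.33 ± 0.20 in vehicle arrays, 6.08 ± 0.32 after TCDD and 5.75 ± 0.47 after Cl-BBQ (limma, adjusted p = 0.104 for Cl-BBQ against vehicle), and Gstk1 at 6.14 ± 0.22, 5.93 ± 0.47 and 5.55 ± 0.45 (adjusted p = 0.137). Mgst2, a microsomal transferase, differed the other way, by 0.35 with Cl-BBQ (adjusted p = 0.121). Gsta4, not tested because too few arrays lay above the floor, was at 4.49 ± 0.27, 3.96 ± 0.09 and 3.83 ± 0.16. These genes were chosen after their values were seen.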
